A study of Mus musculus with 2 samples.

Results

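Genes of excitation-contraction coupling were followed in single-cell RNA-seq of embryonic mouse limb muscle. They were chosen by symbol, 10 of the 32285 genes listed in both count matrices: Cacna1s, Cacng1, Cacnb1, Stac3, Ryr1, Ryr3, Casq2, Trdn, Atp2a1 and Atp2a2, and each had UMIs in both libraries. A UMI (unique molecular identifier) marks 1 captured RNA molecule. The study had 1 library from embryonic day E12.5 and 1 from day E15.5, both of wild-type C57Bl/6 embryos, with forelimb and hindlimb muscle in the same library. The labels name no transgene and no treatment. The number of embryos per library is not given in the sources used here.

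Excitation-contraction coupling is the step by which an electrical signal at the surface of a muscle fibre releases calcium inside it. A voltage-sensing calcium channel in the surface membrane, the dihydropyridine receptor, acts on a ryanodine receptor, a calcium release channel of the sarcoplasmic reticulum. Calcium binds troponin on the thin filaments, the fibre contracts, and calcium pumps return it to the reticulum. In the limb, Pax7 marks muscle progenitors, and Myog encodes myogenin, a transcription factor switched on when myoblasts leave the cell cycle and differentiate.

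The E12.5 matrix held 34907675 UMIs in 12941 barcodes, of which 11001 were kept with a median of 2329 UMIs. At E15.5 there were 46966083 UMIs in 5780 barcodes, with 3916 kept at a median of 9344 UMIs. The libraries shared 17 barcodes. Barcodes with at least 2 UMIs and 300 CPM (UMI counts per 1000000 UMIs) over the 6 regulators Pax7, Myf5, Myod1, Myog, Mymk and Mymx passed a muscle gate. Those with more Myog than Pax7 UMIs are called Myog-positive (231 in the E12.5 library and 134 at E15.5), and those with more Pax7 than Myog UMIs are called Pax7-positive (104 and 108). Barcodes with no UMI of the 6 regulators are called non-muscle (10278 and 3244). Barcodes with a regulator UMI but below the gate (362 and 419) were in no group. Nor were those past the gate but neither Myog- nor Pax7-positive (26 and 11). No coupling gene was used in the gate. The labelled tissue is muscle, but Myog-positive barcodes made up 2.10% and Pax7-positive ones 0.945% of the kept barcodes at E12.5, and 3.42% and 2.76% at E15.5. Median depths in the muscle groups were 3989 (Myog-positive) and 3928 UMIs (Pax7-positive) at E12.5, and 13852 and 14439 UMIs at E15.5. At these median depths the 2 UMIs set the gate at E12.5 and the 300 CPM at E15.5, so it was not alike between ages.

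With 1 library per age, no p-value was computed, and age and library cannot be told apart. Intervals are exact 95% intervals that cover counting error only. Levels are CPM of the UMIs summed over a group, and are not scaled to gene length, so they are compared between groups for a gene and not between genes.

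Start regions of some members whose levels separate the groups are printed here because most of these genes were high together in Myog-positive barcodes. RefSeq windows on GRCm38.p6, from 250 bases before to 50 after a transcript start, matched 5 of the 10 members with 6 windows. Capitals mark CANNTG, the E-box letters that MyoD-family factors such as myogenin are known to bind. The motif reads the same on both strands, so a search covers both, and every match in the printed windows is shown. The 2 Cacnb1 windows are not printed.
Cacna1s (chr1:136052561-136052860, plus strand): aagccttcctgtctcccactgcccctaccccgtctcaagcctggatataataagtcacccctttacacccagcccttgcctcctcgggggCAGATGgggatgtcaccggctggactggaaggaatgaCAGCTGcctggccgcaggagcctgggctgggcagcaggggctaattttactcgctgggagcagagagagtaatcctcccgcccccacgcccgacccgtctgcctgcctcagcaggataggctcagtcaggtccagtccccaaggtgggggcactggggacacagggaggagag
Ryr1 (chr7:29125102-29125401, minus strand): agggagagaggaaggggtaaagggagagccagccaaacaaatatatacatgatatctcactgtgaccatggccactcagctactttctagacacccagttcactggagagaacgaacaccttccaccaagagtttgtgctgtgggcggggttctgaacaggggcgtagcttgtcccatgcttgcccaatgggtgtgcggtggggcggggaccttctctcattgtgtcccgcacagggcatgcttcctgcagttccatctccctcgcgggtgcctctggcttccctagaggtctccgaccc
Casq2 (chr3:102086165-102086464, plus strand): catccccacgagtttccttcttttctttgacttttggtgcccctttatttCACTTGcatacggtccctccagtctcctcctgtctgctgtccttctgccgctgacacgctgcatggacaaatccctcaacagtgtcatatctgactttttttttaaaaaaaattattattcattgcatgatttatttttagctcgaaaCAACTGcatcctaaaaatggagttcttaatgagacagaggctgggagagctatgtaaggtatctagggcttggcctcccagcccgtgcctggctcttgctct
Atp2a1 (chr7:126463024-126463323, minus strand): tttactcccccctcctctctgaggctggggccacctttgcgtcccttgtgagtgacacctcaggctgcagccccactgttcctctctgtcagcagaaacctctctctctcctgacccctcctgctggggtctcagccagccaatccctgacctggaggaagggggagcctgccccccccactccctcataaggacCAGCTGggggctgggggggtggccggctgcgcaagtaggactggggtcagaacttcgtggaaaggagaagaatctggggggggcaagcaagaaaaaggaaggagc
Cacna1s held CAGATG and CAGCTG, 160 and 123 bases before the start. Atp2a1 held CAGCTG 55 bases before the start, and Casq2 held CACTTG and CAACTG. The Ryr1 window and 1 of the 2 Cacnb1 windows held none, and the other Cacnb1 window held CACATG. Of 32851 windows over all genes, 72.3% held CANNTG and 16.3% held CAGCTG, so a match is common. The Casq2 window also held 1 match to the MEF2 motif, which 1.86% of all windows had. None of the 6 windows held the letters CACCTG, which 20.2% of all windows had. A match is a description of the letters and not a measured binding site.

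Coupling genes separated the groups at both ages. At E12.5, 7 of the 8 members with at least 20 UMIs in the 2 muscle groups together were at least 2-fold higher in Myog-positive than in Pax7-positive barcodes, where 11.5% of 7691 genes were. At E15.5 it was 8 of 9 members, beside 8.17% of 9205 genes. No member was 2-fold lower, where 9.56% and 12.9% of genes were. The member within 2-fold at both ages was Atp2a2, and Ryr3 had too few UMIs at both ages, as did Cacnb1 at E12.5. Members with no UMI in Pax7-positive barcodes reached the minimum only through the Myog-positive group, so these counts describe the genes and are not independent support. Against non-muscle barcodes, 8 of 10 members were at least 2-fold higher at both ages, where 8.73% (E12.5) and 7.42% (E15.5) of genes were. One of these 8, Cacnb1, lay near the threshold. After thinning to 2000 UMIs, which leaves fewer members with 20 UMIs, 2 members were past 2-fold higher against either group at E15.5.

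**Figure D1:**
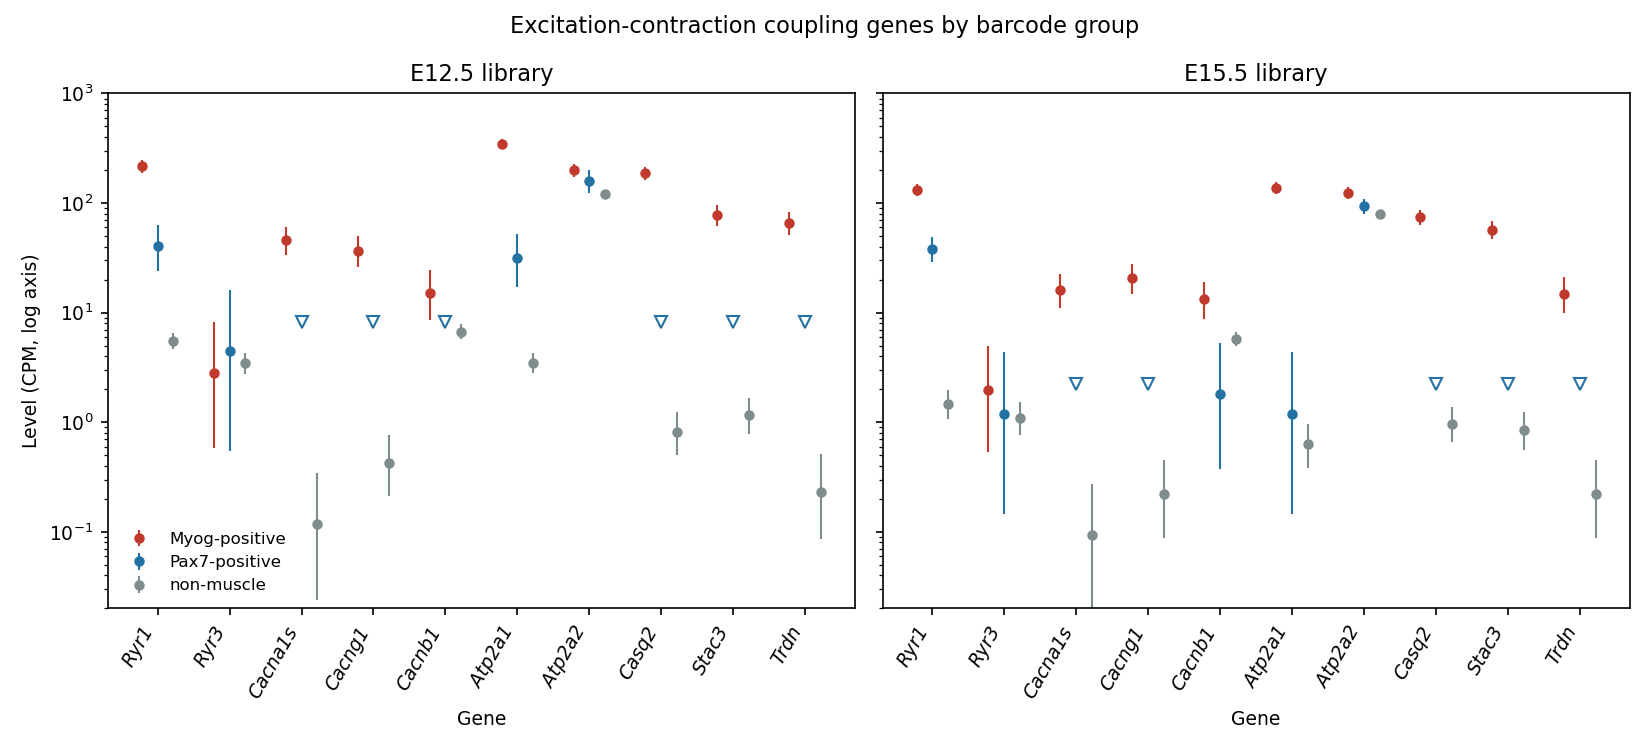
Level of each of the 10 genes (CPM, log axis) in Myog-positive, Pax7-positive and non-muscle barcodes of the E12.5 and E15.5 libraries. Points are summed levels, bars are exact Poisson 95% intervals of counting error, and open triangles mark the upper limit for genes with 0 UMIs. Atp2a2 lies between 79.4 and 199 in every group, and Cacna1s, Cacng1, Casq2, Stac3 and Trdn have no UMI in Pax7-positive barcodes.

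Of the dihydropyridine receptor, Cacna1s encodes the pore-forming, voltage-sensing subunit of the skeletal muscle channel. Its level in Myog-positive barcodes was 45.8 CPM at E12.5 (95% interval 33.9 to 60.5, 49 UMIs) and 16.2 CPM at E15.5 (11.1 to 22.7, 33 UMIs). No Cacna1s UMI was found in Pax7-positive barcodes of either age, which makes the Myog-positive level at least 6.82-fold higher in the E12.5 library and at least 8.94-fold higher at E15.5, against a floor of 3 counts over the group. With equal weight per barcode the E15.5 bound was lower, a log2 ratio of 1.33. Non-muscle barcodes had 0.117 and 0.0942 CPM (3 UMIs each).

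Cacng1, the gamma subunit of the same channel, had 36.4 CPM (25.9 to 49.8) in the E12.5 library and 20.6 CPM (14.8 to 27.8) at E15.5 in Myog-positive barcodes. It had no UMI in Pax7-positive barcodes, and its Myog-positive level was at least 5.43-fold and at least 11.4-fold higher by the same floor (a log2 ratio of 2.29 at E15.5 with equal weight per barcode). Stac3, an adaptor that the channel needs to reach the surface and to couple, was at 77.6 CPM (61.8 to 96.2) and 56.8 CPM (46.9 to 68.1). Stac3 was also absent from the Pax7-positive counts, for a difference of at least 11.6-fold and at least 31.4-fold. In non-muscle barcodes Cacng1 was at 0.428 and 0.220 CPM, and Stac3 at 1.17 and 0.847 CPM.

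Cacnb1, the intracellular beta subunit, differed from the other channel genes by its level outside muscle. It had 15.0 CPM (8.55 to 24.3, 16 UMIs) in Myog-positive barcodes in the E12.5 library and 13.2 CPM (8.71 to 19.2, 27 UMIs) at E15.5. Non-muscle barcodes had 6.73 and 5.78 CPM, so the log2 ratio of Myog-positive over non-muscle was 1.15 (0.31 to 1.89) in the E12.5 library and 1.19 (0.55 to 1.78) at E15.5. Its 2-fold difference was lost when barcodes were chosen by Myog UMIs alone, at E12.5 with a minimum of 1 (0.97) or 2 (0.90) and at E15.5 with a minimum of 1 (0.56). The E15.5 ratio turned to -0.12 when every barcode was given equal weight and to -0.74 after thinning to 2000 UMIs. In that group, 3 of the 134 barcodes held 55.6% of the Cacnb1 UMIs. Pax7-positive barcodes had 0 UMIs in the E12.5 library and 3 UMIs (1.81 CPM) at E15.5, which is a log2 ratio of -1.68 (-3.97 to -0.11) against non-muscle barcodes.

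Ryr1 encodes the calcium release channel of skeletal muscle, and it was read in Pax7-positive as well as Myog-positive barcodes. Its level was 216 CPM (189 to 246) in Myog-positive and 40.3 CPM (23.9 to 63.7, 18 UMIs) in Pax7-positive barcodes at E12.5. At E15.5 these levels were 132 CPM (116 to 148) and 38.0 CPM (29.2 to 48.6, 63 UMIs). The log2 ratio between the groups was 2.42 (1.73 to 3.20) in the E12.5 library and 1.79 (1.39 to 2.21) at E15.5. Pax7-positive barcodes in turn had more Ryr1 than non-muscle barcodes, by 2.86 (2.06 to 3.57) and 4.69 (4.12 to 5.26) on the log2 scale.

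As a background, Ryr1 was also read in endothelial-like barcodes, which should lack it and were of like depth (median 4139 and 12468 UMIs). They had 0 Ryr1 UMIs in the E12.5 library and 1 (0.540 CPM) at E15.5. After each barcode was thinned to 2000 UMIs, Ryr1 was detected in 8 of 101 Pax7-positive barcodes at E12.5 (7.92%, 3.48 to 15.0) and 5 of 106 at E15.5 (4.72%, 1.55 to 10.7). Thinning left out 3 and 2 shallower Pax7-positive barcodes, and 12 and 11 Myog-positive ones. Unthinned, the Pax7-positive shares were 13.5% and 34.3%. In thinned endothelial-like barcodes the count was 0 of 111 and 0 of 114, which allows shares of up to 2.70% and 2.63% by the floor of 3 counts, and of 3.27% and 3.18% by the exact interval. Endothelial-like and Pax7-positive intervals overlapped at E15.5 in these thinned shares, while the summed levels did not overlap at either age.

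Ryr1 was present in Pax7-positive barcodes with no UMI of Myog or Myod1, the gene of an earlier muscle-determining factor. There it was 40.4 CPM (20.9 to 70.6, 72 barcodes) in the E12.5 library and 23.6 CPM (13.7 to 37.7, 53 barcodes) at E15.5. Pax7-positive barcodes with a Myod1 UMI had 39.7 CPM (12.9 to 92.6) and 48.0 CPM (34.9 to 64.4). The intervals of the 2 subsets overlapped at both ages, at E15.5 only between 34.9 and 37.7 CPM. No ratio of the subsets was computed, and an overlap does not show equal levels. A UMI can be missed at these depths, so a barcode without one is not shown to lack the transcript.

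Ryr3, a second ryanodine receptor isoform, was scarce. Myog-positive barcodes had 3 UMIs (2.80 CPM, 0.578 to 8.19) in the E12.5 library and 4 UMIs (1.96 CPM, 0.533 to 5.01) at E15.5. Pax7-positive barcodes had 2 UMIs at each age, at 4.48 and 1.20 CPM, and non-muscle barcodes had 3.46 and 1.10 CPM. The intervals of all 3 groups overlapped, so no difference in Ryr3 was detectable at this depth.

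Of the calcium store, Casq2 encodes calsequestrin 2, which binds calcium inside the reticulum. It had 187 CPM (162 to 215) in the E12.5 library and 74.4 CPM (63.0 to 87.2) at E15.5 in Myog-positive barcodes and no UMI in Pax7-positive ones, a difference of at least 27.8-fold and at least 41.2-fold. Trdn encodes triadin, which anchors calsequestrin to the release channel. Its levels were 65.4 CPM (51.0 to 82.7) and 14.7 CPM (9.91 to 21.0), with no UMI in Pax7-positive barcodes, at least 9.74-fold and at least 8.12-fold higher. With equal weight per barcode the E15.5 bounds were log2 ratios of 3.97 for Casq2 and 1.21 for Trdn. Both were low in non-muscle barcodes, where Casq2 had 0.817 and 0.973 CPM and Trdn 0.233 and 0.220 CPM.

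The levels of the pump genes differed in pattern. Atp2a1 encodes SERCA1, the calcium pump of fast skeletal fibres, and was at 349.5 CPM (315 to 387) in Myog-positive barcodes in the E12.5 library and 138 CPM (122 to 155) at E15.5. In Pax7-positive barcodes it was at 31.3 CPM (17.1 to 52.6, 14 UMIs) in the E12.5 library and 1.20 CPM (0.146 to 4.35, 2 UMIs) at E15.5, and these intervals did not overlap. The log2 ratio of Myog-positive over Pax7-positive was 3.48 (2.71 to 4.36) and 6.84 (4.97 to 9.89), the latter 5.74 with equal weight per barcode. At E12.5 endothelial-like barcodes had no Atp2a1 UMI, and the Pax7-positive level remained at 33.7 CPM (16.2 to 62.0) among barcodes with no Myog or Myod1 UMI.

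Atp2a2 encodes SERCA2, whose isoforms serve slow and cardiac muscle and the endoplasmic reticulum of most cells. Its levels were 199 CPM (173 to 228) in Myog-positive, 159 CPM (124 to 200.4) in Pax7-positive and 122 CPM (118 to 126) in non-muscle barcodes at E12.5. At E15.5 they were 124 CPM (109 to 141), 94.0 CPM (79.8 to 109.9) and 79.4 CPM (76.4 to 82.6). The log2 ratio of Myog-positive over Pax7-positive was 0.33 (-0.07 to 0.73) and 0.40 (0.11 to 0.70). Myog-positive barcodes were above non-muscle ones by 0.71 (0.50 to 0.91) and 0.65 (0.45 to 0.83) on the log2 scale. Relative to the median gene of that comparison these differences were 1.05 and 1.12, past 2-fold.

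Between ages in non-muscle barcodes, 3 of the 7 members with enough UMIs were at least 2-fold lower at E15.5, where 20.4% of genes were. Ryr1 was at 5.56 CPM (4.69 to 6.55) and then 1.48 CPM (1.08 to 1.96), and Atp2a1 at 3.50 CPM and then 0.628 CPM (0.383 to 0.969). The third was Ryr3, for which no difference from the muscle groups was detectable, with a log2 ratio of -1.66 (-2.26 to -1.08). Casq2 had a log2 ratio of 0.25 (-0.59 to 1.12). The contractile share of UMIs in the same barcodes was 0.0160% and 0.00798%, and the highest share in any barcode was 1.65% and 0.434%. Their median depth was 2280 UMIs at E12.5 and 8937 UMIs at E15.5, so a regulator UMI is more easily missed at E12.5. The part of free muscle RNA, or of muscle cells with no regulator UMI, in these levels was not tested.

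Outside the muscle gate, the marker classes differed for a few members. Classes were named "-like" where a barcode had at least 3 different markers of a class and more than of any other. At E15.5 the 63 mural-like barcodes, whose leading genes included the smooth muscle genes Acta2, Myh11 and Tagln, had 14.9 CPM of Casq2 (8.16 to 25.1, 14 UMIs in 8 barcodes), and endothelial-like barcodes had 0.540 CPM (0.0137 to 3.01). Connective tissue-like barcodes had 0.434 CPM of Casq2. Mural-like barcodes also had 166 CPM of Atp2a2 (141 to 195), against 69.1 (57.7 to 82.2) in endothelial-like and 77.4 (73.7 to 81.3) in connective tissue-like barcodes. Their Ryr1 level was 2.13 CPM (0.258 to 7.71) and they had no Atp2a1 UMI. Cacnb1 was between 6.37 and 8.53 CPM in mural-, chondrocyte-, tenocyte- and connective tissue-like barcodes of E15.5 and had no UMI in endothelial-like ones of either age, where the exact interval reaches 6.24 CPM (E12.5) and 1.99 CPM (E15.5).

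**Figure D2:**
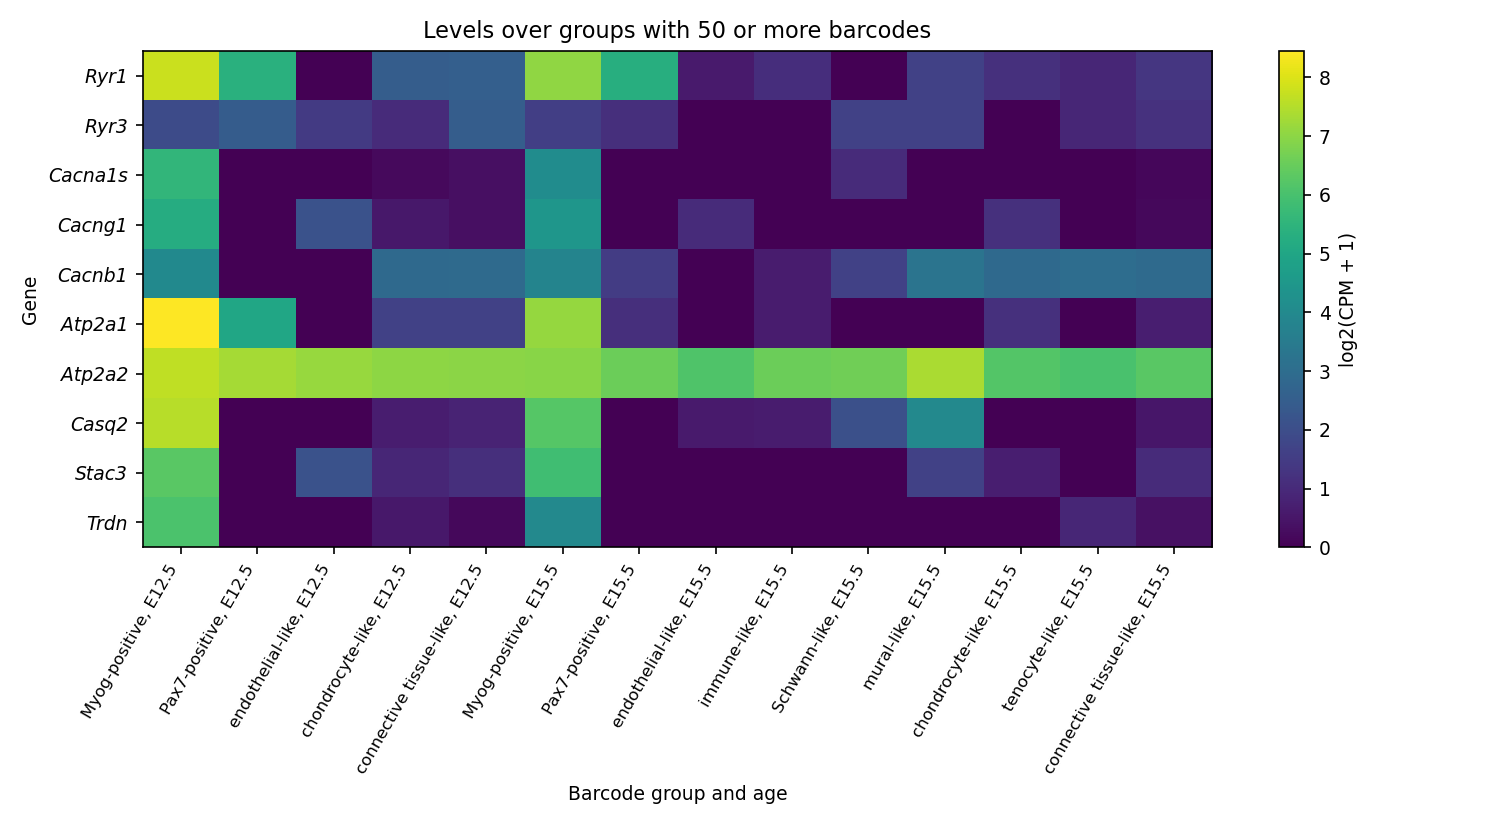
Level of each of the 10 genes, as log2(CPM + 1), in the muscle groups and the marker classes with 50 or more barcodes at E12.5 and E15.5. Colour runs from 0 (dark) to the highest level (Atp2a1 in Myog-positive barcodes at E12.5). Atp2a2 is filled across the row, and Casq2 stands above its background in mural-like barcodes of E15.5. Cacna1s, Stac3 and Trdn are each highest in the 2 Myog-positive columns.

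Myog-positive barcodes were then put in order by the share of their UMIs from 12 contractile genes, none of them a member, and split into 3 parts of equal number (terciles). A tercile is a range and not a cell type. Ryr1, Atp2a1 and Stac3 were read in all 3 terciles. Ryr1 was at 90.1, 194 and 344 CPM in the lowest, middle and highest tercile at E12.5, and at 59.7, 86.0 and 236 CPM at E15.5. Atp2a1 was at 172, 408 and 466 CPM at E12.5, and at 4.37, 87.7 and 304 CPM at E15.5. Stac3 was at 16.4, 81.6 and 129 CPM, and at 8.74, 50.3 and 107 CPM.

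Cacna1s, Cacng1, Casq2 and Trdn were read almost only in the highest tercile. Casq2 was at 0, 17.0 and 476 CPM in the E12.5 library and at 0, 6.49 and 199.7 CPM at E15.5. Cacna1s was at 0, 6.80 and 115 CPM in the E12.5 library and at 0, 0 and 44.5 CPM at E15.5. Trdn had 68 of its 70 UMIs in the highest tercile at E12.5, and all 30 at E15.5. Cacng1 was at 0, 10.2 and 87.9 CPM, and at 0, 6.49 and 51.3 CPM. These zero readings allow up to 3 counts over a tercile, and the depth of the terciles was alike (medians of 3728 to 4262 UMIs in the E12.5 library and 12997 to 14494 at E15.5).

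Between the highest and the lowest tercile, 7 of 8 members with enough UMIs were at least 2-fold higher at E12.5, beside 12.0% of genes, and 8 of 9 at E15.5, beside 12.2% of genes. Members with no UMI in the lowest tercile reached the minimum of 20 UMIs only through the highest, so these counts are a description and no support. The remaining one was Atp2a2 at both ages, at 169, 156 and 256 CPM in the E12.5 library and 109, 107 and 152 CPM at E15.5. Atp2a1 in the lowest tercile differed between the ages, 172 CPM (132 to 220.1) against 4.37 CPM (0.902 to 12.8). That tercile reached a contractile share of 1.01% of UMIs in the E12.5 library and 0.496% at E15.5, so the terciles of the 2 libraries do not cover the same range. Pax7 in that tercile was at 19.1 CPM (7.68 to 39.4) in the E12.5 library and 46.6 CPM (31.9 to 65.8) at E15.5. The part of this in the Atp2a1 difference was not tested.

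**Figure D3:**
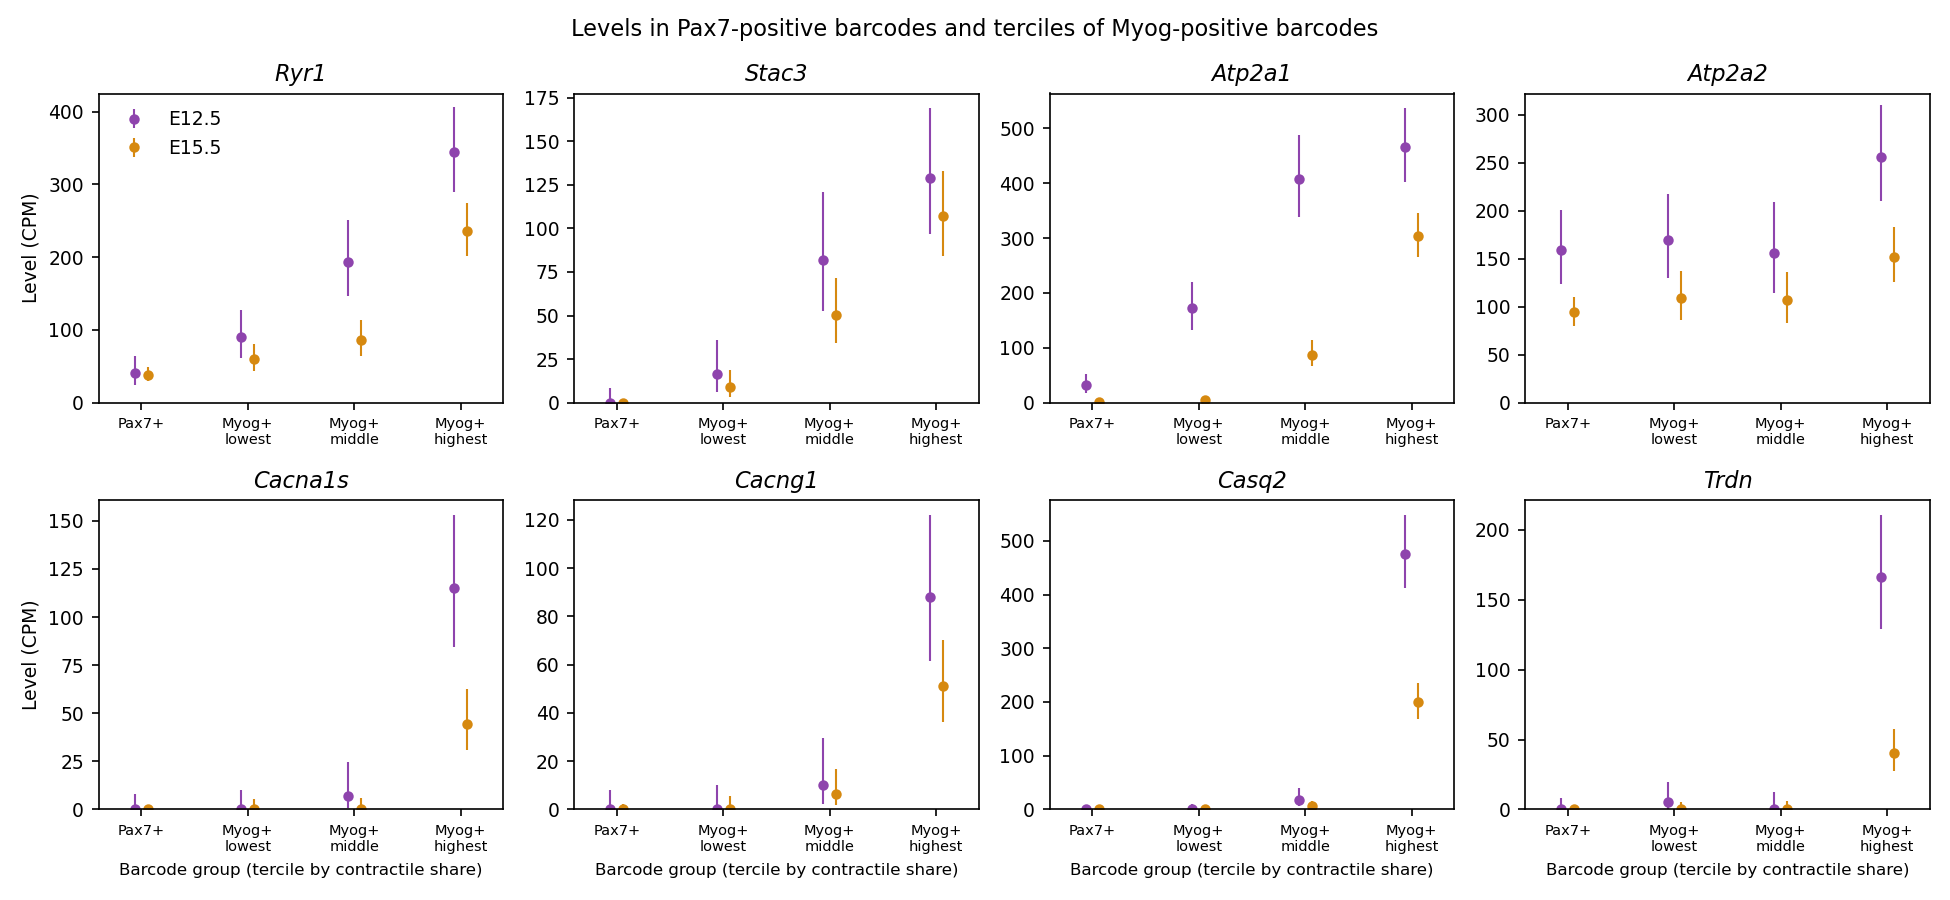
Level (CPM) of 8 genes in Pax7-positive barcodes and in the lowest, middle and highest tercile of Myog-positive barcodes by contractile share, at E12.5 and E15.5. Points are summed levels and bars are exact Poisson 95% intervals. Ryr1, Stac3 and Atp2a1 are present in the middle tercile at both ages, and Cacna1s, Cacng1, Casq2 and Trdn are near 0 until the highest.

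Some Myog-positive barcodes held several members, fewer of them at E15.5 than at E12.5. Thinned to 2000 UMIs, 37.0% (30.6 to 43.8) of 219 Myog-positive barcodes in the E12.5 library and 10.6% (5.75 to 17.4) of 123 at E15.5 had at least 2 of the 8 members other than Ryr3 and Atp2a2. None of 101 and 106 Pax7-positive barcodes did. At E12.5, 72 Myog-positive barcodes had a UMI of Cacna1s, Casq2 or Trdn, and 14 had all 3, and at E15.5 these numbers were 21 and 3. The highest tercile held 87.5% and 85.7% of the barcodes with any of them. Of the 32 barcodes with a Trdn UMI at E12.5, 25 also had Casq2, its binding partner. In the highest tercile, which held 30 of these 32, Casq2 was read in 72.7% of all barcodes.

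At E15.5 the genes of the highest tercile rested on few barcodes. Trdn had 30 UMIs in 6 barcodes, and 3 of these held 90.0% of them. Cacna1s had 33 UMIs in 7 barcodes (84.8% in 3), Cacng1 42 UMIs in 9 (71.4%), and Casq2 152 UMIs in 18 (74.3%). Ryr1 was spread over 91 barcodes, with 27.9% of 269 UMIs in 3, and Stac3 over 53, with 19.0% in 3. At E12.5 the 3 fullest barcodes held 30.6% of the Cacna1s and 27.1% of the Trdn UMIs. The counting intervals for these genes do not include the spread between barcodes.

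In Myog-positive barcodes as a whole, all 9 members with enough UMIs had log2 ratios of E15.5 over E12.5 below 0. The median of 9001 genes was below 0 as well, at -0.37. Of the 9 members, 4 were at least 2-fold lower and 0 were 2-fold higher, where 20.3% of 9001 genes were lower and 4.66% higher. These were Trdn (log2 ratio -2.16, -2.82 to -1.52), Cacna1s (-1.50, -2.19 to -0.84), Atp2a1 (-1.34, -1.57 to -1.11) and Casq2 (-1.33, -1.64 to -1.02). Relative to the median gene, Trdn (-1.78) and Cacna1s (-1.13) were past 2-fold, and the share of all genes was not counted on that scale. Ryr1 (-0.71, -0.97 to -0.45), Cacng1 (-0.83, -1.49 to -0.16), Atp2a2 (-0.68, -0.95 to -0.41), Stac3 (-0.45, -0.87 to -0.03) and Cacnb1 (-0.18, -1.12 to 0.81) were within 2-fold. The median over the 9 members was -0.83. When barcodes were chosen by 1 or more Myog UMIs alone, Ryr1 (-1.23) and Cacng1 (-1.36) were past 2-fold as well.

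Shares of barcodes with a UMI, after thinning to 2000 UMIs, had the same order. Among Myog-positive barcodes, Ryr1 was detected in 31.1% (25.0 to 37.6) of 219 at E12.5, and in 17.9% (11.6 to 25.8) of 123 at E15.5. Atp2a1 was detected in 45.2% (38.5 to 52.1) of barcodes of the younger age, against 15.4% (9.56 to 23.1), and Casq2 in 19.6% (14.6 to 25.5) against 3.25% (0.893 to 8.12). Without thinning, the Ryr1 shares were 50.6% and 67.9%, in the opposite order, with the deeper barcodes at E15.5. Thinned endothelial-like barcodes had a Casq2 UMI in 0 of 111 and 1 of 114.

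The contractile content of these barcodes also differed. Contractile genes made up 3.08% of UMIs in Myog-positive barcodes in the E12.5 library and 1.57% at E15.5. Of the 12 genes, 10 were lower and 2 higher at E15.5, where the median gene had a log2 ratio of -0.37. The 3 at least 2-fold lower were Ttn, Myh3 and Tnnc1, where 20.3% of 9001 genes were. Ttn, the gene of the giant sarcomere protein titin, was at 12437 CPM in the E12.5 library and 2590 at E15.5, and without it the share was 1.84% and 1.32%. Myh3, embryonic myosin heavy chain, was at 2157 and 626 CPM. Actc1, an alpha-actin, was at 4952 and 4919 CPM, and Tnnt3, fast troponin T, at 293 and 329. Myog itself was at 1031 CPM in the E12.5 library and 1602 at E15.5. Whether fewer far-differentiated cells were captured or each held less RNA of these genes cannot be told apart.

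Barcodes of like contractile share were therefore set side by side, split at the pooled median share of 1.07% of UMIs, a split chosen after the data had been seen. Above it, with 146 barcodes in the E12.5 library and 36 at E15.5, 1 of 9 members was 2-fold lower at E15.5, beside 26.4% of genes, and it was Trdn (102 against 45.8 CPM, log2 ratio -1.15, -1.82 to -0.51). Casq2 (-0.40, -0.72 to -0.09), Atp2a1 (-0.51, -0.77 to -0.25), Cacna1s (-0.54, -1.22 to 0.13) and Ryr1 (-0.26, -0.57 to 0.05) were within 2-fold. The median share above it was still 2.74% in the E12.5 library and 1.86% at E15.5, so it was not fully matched. Over all Myog-positive barcodes Ttn was at 12437 CPM and 2590 CPM, so a like share need not hold the same mix of genes.

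At or below the pooled median there were 85 and 98 barcodes. There Atp2a1 was at 172 CPM in the E12.5 library and 51.9 CPM at E15.5 (log2 ratio -1.73, -2.23 to -1.23), where 18.9% of genes were 2-fold lower. Ryr1 was at 94.7 and 80.0 CPM (-0.24, -0.79 to 0.33). Stac3 was at 15.0 CPM (6 UMIs) and 31.0 CPM (43 UMIs), a log2 ratio of 1.05 whose interval, -0.19 to 2.57, includes 0, where 6.18% of genes were 2-fold higher. The median share here was 0.605% in the E12.5 library and 0.573% at E15.5.

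**Figure D4:**
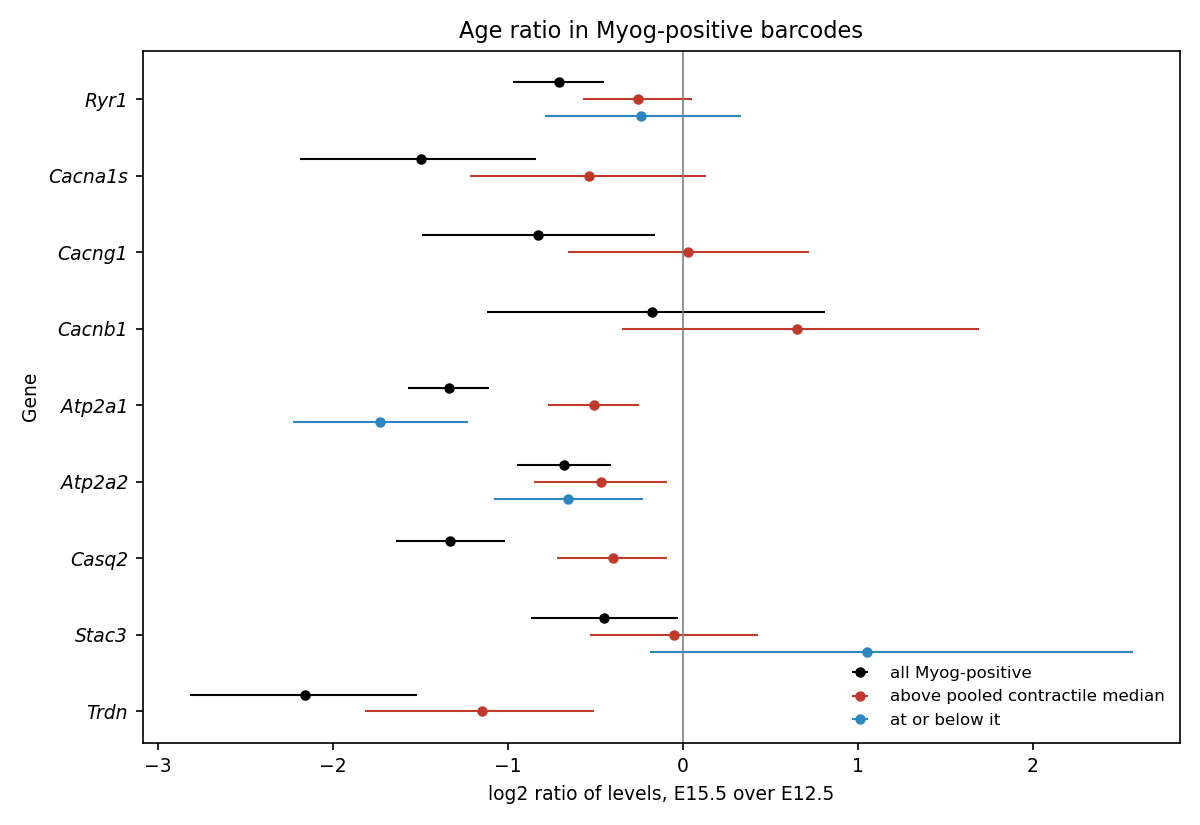
Log2 ratio of levels, E15.5 over E12.5, for 9 genes in all Myog-positive barcodes and in those above and at or below the pooled median contractile share. Points are ratios of summed levels and bars exact 95% intervals of counting error, shown where both ages had a UMI and the sum was at least 20. In all barcodes every point lies below 0, and above the median share Trdn alone lies past -1.

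Markers of other cell types were read in the muscle groups too. At E15.5 each of the 10 marker lists summed to less in Myog-positive and in Pax7-positive barcodes than in non-muscle ones. At E12.5 the Schwann cell list was higher in muscle, at 142 CPM in Myog-positive (120.4 to 167, 6 of 7 genes with a UMI) and 114 CPM in Pax7-positive barcodes (85.0 to 150.1, 3 of 7), against 40.9 CPM in non-muscle barcodes. At E15.5 it was at 72.4, 20.5 and 131 CPM in the same order. The mural list, of interest for Casq2 and Atp2a2, was at 46.7 CPM in Myog-positive, 141 in Pax7-positive (108 to 180.4) and 114 in non-muscle barcodes at E12.5, and at 25.0, 119.9 and 174 CPM at E15.5. Its genes Myh11 and Higd1b were at 0 in both muscle groups at both ages. In Pax7-positive barcodes only 3 of its 7 genes had a UMI at E12.5, and 2 at E15.5 (Notch3 and Cspg4). These sums therefore do not stand for the whole list. Myog-positive barcodes had UMIs of 4 and 5 of the 7 genes.

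The immune list at E12.5 was at 24.3 CPM in Myog-positive (15.9 to 35.6) and 20.7 in non-muscle barcodes. In Myog-positive barcodes the endothelial list summed to 4.67 CPM at E12.5 (2 of 7 genes) and 47.0 CPM at E15.5 (7 of 7), beside 142 and 329 CPM in non-muscle barcodes. The chondrocyte list summed to 194 CPM (7 of 7) and 21.5 CPM (6 of 7), against 2224 and 516 CPM, and the connective tissue list to 225 and 79.8 CPM (8 of 8), against 1706 and 2249 CPM. The part of these cells' RNA in the difference between ages was not tested.

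A wider list of 54 coupling genes, with none of the members, had the same direction between the muscle groups. At E12.5, 14 of 25 genes with enough UMIs were at least 2-fold higher in Myog-positive than Pax7-positive barcodes and 0 were lower, beside the same 11.5% and 9.56% of all genes. At E15.5 it was 13 higher and 1 lower of 24, beside 8.17% and 12.9%. Listed genes with no UMI in Pax7-positive barcodes reached the minimum only through the Myog-positive group. These counts are therefore a description and not independent support. The median log2 ratio over the listed genes was 1.46 and 1.25, where over all genes it was -0.13 and -0.20. Against non-muscle barcodes the wider list was mixed. At E12.5, 15 of 45 genes were at least 2-fold higher and 9 lower (median 0.07), beside 8.73% and 23.9% of all genes, and at E15.5 it was 13 higher and 16 lower of 44 (median -0.40), beside 7.42% and 34.1%.

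Store and membrane genes were among them. Hrc, a histidine-rich calcium-binding protein of the reticulum, was at 143 CPM against 2.24 at E12.5 (log2 ratio 6.00, 3.50 to 11.31) and at 90.1 CPM against 0 at E15.5 (at least 49.8-fold). Sln, sarcolipin, a small inhibitor of SERCA pumps, was at 208 and 110.1 CPM with no UMI in Pax7-positive barcodes, at least 31.0-fold and at least 60.9-fold higher. Srl, sarcalumenin, had log2 ratios of 3.73 (2.34 to 5.63) and 3.26 (2.50 to 4.13). Jph2, a junctophilin that ties the reticulum to the surface membrane, had 2.99 (0.33 to 8.36) and 3.51 (1.52 to 6.62), and Bin1, which shapes the T-tubule membrane, 1.46 (0.94 to 2.01) and 1.85 (1.60 to 2.10).

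Chrna1, the alpha subunit of the muscle acetylcholine receptor, was at 193 against 11.2 CPM in the E12.5 library and 231 against 14.5 CPM at E15.5. Cacna2d1, the alpha2delta subunit of the channel, was at 134 against 51.5 CPM and 41.1 against 14.5 CPM. The gene lower in Myog-positive barcodes at E15.5 was Cacnb3, another beta subunit, at 5.87 against 15.1 CPM (log2 ratio -1.36, -2.49 to -0.31).

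Between ages in Myog-positive barcodes, 3 of 29 wider-list genes were at least 2-fold higher at E15.5 and 9 lower, beside 4.66% and 20.3% of all genes. Cav3, the muscle caveolin of surface membrane and developing T-tubules, was at 23.4 CPM in the E12.5 library and 116 CPM at E15.5 (log2 ratio 2.31, 1.71 to 2.97), against the direction of the members. It was also higher above the pooled contractile median (37.4 and 313 CPM, 3.07, 2.46 to 3.73). Jsrp1, a junctional reticulum protein that binds the channel, was at 38.3 and 118 CPM (1.63, 1.15 to 2.14). Tmem38b, a cation channel of the reticulum, was at 17.8 and 35.7 CPM (1.01, 0.26 to 1.82). Cacna2d1 was lower by a log2 ratio of -1.70 (-2.11 to -1.30), and so was Atp2b1, a calcium pump of the surface membrane (-1.24, -1.48 to -1.01).

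Over the 14 groups with 50 or more barcodes, the genes most like the mean of the 10 members were Smyd1 (Pearson r 0.994), Sh3bgr (0.990), Tnnc1 (0.987), Lmod3 (0.987) and the non-coding Gm45159 (0.986). Likeness was measured on log2(CPM + 10). Smyd1, a muscle methyltransferase of myofibril assembly, was at 219 and 80.8 CPM in Myog-positive barcodes at E12.5 and E15.5, and at 6.71 and 2.41 in Pax7-positive ones. Among the members, r with their own mean ran from 0.364 for Ryr3, 0.604 for Atp2a2 and 0.670 for Cacnb1 to 0.975 for Cacna1s and Atp2a1. The 14 groups come from 2 libraries and share their depth, and 2 of them are the Myog-positive groups, so r is a description.

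On GRCm38, by GENCODE vM21, Ryr1 (ENSMUSG00000030592) lies at chr7:29003344-29125179 and Atp2a1 (ENSMUSG00000030730) at chr7:126445858-126463108. Cacna1s (ENSMUSG00000026407) lies at chr1:136052750-136119822. Casq2 (ENSMUSG00000027861) is at chr3:102086415-102146514, and Stac3 and Trdn are both on chromosome 10. Cacng1 and Stac3 overlap no other annotated gene. The strand setting of the authors' counting is not given in the sources used here, so UMIs of genes on the other strand could not be told apart for Ryr1, Ryr3, Cacna1s, Cacnb1, Atp2a1, Atp2a2 and Trdn. Ryr1, Cacna1s, Atp2a2 and Trdn also overlap annotated genes on their own strand, and Casq2 overlaps genes on its own strand only. The part of UMIs from such overlaps was not tested.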

How the data were processed

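Droplet libraries of embryonic mouse limb muscle (10x Chromium 3′ kit v3.1, 1 at E12.5 and 1 at E15.5) were analysed from the deposited UMI counts per gene and barcode. Per the submitters' processing notes, Cell Ranger 4.0.0, Seurat 4.3.0 and mm10 were used. Cell calling settings are not given in the sources used here. No cell annotation was used.

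Barcodes with at least 500 genes and under 10% mitochondrial UMIs were kept, and doublets were removed by a Scrublet-like score at 0.8% per 1000 barcodes (1270 at E12.5 and 190 at E15.5). Counts were summed per group. Levels have exact Poisson intervals, ratios exact conditional binomial intervals and shares Clopper-Pearson intervals, all at 95%. UMIs of a droplet are not independent replicates, so intervals cover counting error only. A gene at 0 was set to a floor of 3 counts over the group. Genes with 20 or more UMIs in the 2 groups together were counted as different past 2-fold. Only the fold calling and the ratio intervals were tried on simulated Poisson counts of 2 pooled groups, without gating, thinning or spread between barcodes. Python 3.11.15, numpy 2.4.6, scipy 1.17.1, pandas 2.3.3, scikit-learn 1.9.0 and matplotlib 3.10.9 were used.

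The genes, the gene lists and the markers were chosen with earlier results of these data known. Genes named are the 10 members, gate and contractile genes, wider-list genes past 2-fold with an interval without 1 (at most 20), and the 5 genes most like the members. Alternatives varied the gate, doublet removal, barcode filter, weighting, scaling, thinning depth and fold.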

Additional observations from a re-analysis of the deposited data

Results flagged for a closer look

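Ryr3 had ratios of opposite sign at the 2 ages. Its log2 ratio of Myog-positive over Pax7-positive barcodes was -0.67 at E12.5 (3 against 2 UMIs) and 0.70 at E15.5 (4 against 2 UMIs), and over non-muscle barcodes it was -0.30 and 0.83. Every interval included 0, and the difference was not tested.

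Stac3 differed in sign between parts of the Myog-positive group. Its log2 ratio of E15.5 over E12.5 was -0.05 above the pooled contractile median and 1.05 at or below it, where E12.5 had 6 UMIs. The difference was not tested.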

How the results depend on the processing

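No paired analysis was possible because each age had 1 library, and no replicate could be left out. The number of members at least 2-fold lower at E15.5 in Myog-positive barcodes, 4 as reported, was 2 relative to the median gene, 1 at a fold of 4, and 1 both above and at or below the pooled contractile median. At or below it 1 member, Stac3, was higher. With equal weight per barcode 6 were lower, as with 1 or more Myog UMIs as the gate. Without a Pax7 UMI in Myog-positive barcodes 4 were lower. After thinning to 2000 UMIs, which leaves fewer members with 20 UMIs, 2 members were higher at E15.5 in Myog-positive than in Pax7-positive barcodes and 2 than in non-muscle barcodes. At E12.5 Cacnb1 was within 2-fold of non-muscle barcodes with 1 or more or 2 or more Myog UMIs as the gate, as at E15.5 with 1 or more, which left 7 members higher. Cacnb1 over non-muscle barcodes at E15.5 reversed to a log2 ratio of -0.12 with equal weights and -0.74 after thinning; its UMIs lay in 13 barcodes. Of the ratios of single members under the alternatives, 10 of 99 (E12.5) and 10 of 95 (E15.5) against Pax7-positive barcodes moved past their counting interval, as did 32 of 115 between ages, and 4 of 99 and 14 of 96 against non-muscle barcodes. Cacnb1 aside, none reversed a difference past 2-fold. The thinned share of Pax7-positive barcodes with Ryr1 at E15.5, 4.72%, was 4.67% at 1000 UMIs and 11.4% at 4000 UMIs. Lower bounds against Pax7-positive barcodes shrink after thinning by construction, since 3 counts are then a larger share of a smaller total: at E12.5 they ran from a log2 ratio of 0.76 (Cacng1) to 3.32 (Casq2) over Cacna1s, Cacng1, Casq2, Stac3 and Trdn, and at E15.5 they were 0.79 for Casq2 and 1.66 for Stac3. Depth left no detectable difference for Ryr3.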
